A study of Mus musculus with 4 samples.

Results

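Basophils and mast cells are granule-bearing cells of allergic and anti-parasite responses, and 6 genes that they are known for were followed here through dendritic cells sorted from mouse spleen. The genes are Hdc, Gata2, Cpa3, Mcpt8, Fcer1a and Ms4a2, taken as a named list, and each of the 6 matched 1 of the 17300 rows of the deposited table. The comparison was between 2 KO libraries and 2 WT libraries of total RNA, called KO A, KO B, WT 1 and WT 2. The labels give the genotype as KO or WT, and the titles and columns of the KO libraries read EKO. They spell out no deleted gene and name no strain, age, sex, treatment or sorting gate. Every column of the table begins with Allo, which no label explains. The series title concerns Siglec-E, an inhibitory sialic acid receptor of myeloid cells, and how it bears on antigen-presenting cells and graft rejection. Separate animals are not stated for the samples, so the p-values measure the spread between these libraries, which may be technical in part.

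All 6 genes had more RNA in both KO libraries than in either WT library, which held for 26.5% of all genes of the table. The ratio of mean normalized counts, KO over WT, was 3.52 for Hdc, 3.65 for Gata2, 3.21 for Mcpt8, 2.70 for Fcer1a, 2.44 for Cpa3 and 2.37 for Ms4a2. Hdc, Gata2 and Mcpt8 passed an adjusted p of 0.05 in limma across all genes, where 4.69% of genes were called higher in KO, and Ms4a2 did not pass. Cpa3 and Fcer1a lay less than 1 log2 unit above the lowest value of the table, under the limit for that test. Mcpt8 and Ms4a2 met that limit only through their level in KO. In each of the 6 the libraries stood in the same order, from KO B at the top through KO A and WT 1 to WT 2 at the bottom, an order found in 6.4% of all genes.

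Basophils circulate and are recruited within hours, whereas mast cells mature in tissues. Both carry the high-affinity IgE receptor, which binds IgE so that an antigen can cross-link it and trigger release of histamine and proteases. In the mouse, GATA2 is required for both lineages, and Mcpt8 marks basophils rather than most tissue mast cells. Some of the genes are not exclusive to these cells: mouse neutrophils and other myeloid cells can transcribe Hdc, and blood progenitors transcribe Gata2 and Cpa3.

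The values are variance-stabilized log2 values, on which a count of 0 lies at the lowest value, 8.04, in every library, and low values are compressed towards that level. Normalized read counts were recovered from them, with a sum of between 29002408 and 30952251 per library after the authors' scaling, so the reads per library are unknown. A difference is KO minus WT on the deposited log2 scale. At low expression it understates the fold, so a ratio of mean counts is given as well. Because the RNA is bulk, fewer cells of a type and less RNA per cell cannot be told apart.

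The genotype labels were checked on Siglece, the gene of Siglec-E. It had 101 and 111 normalized counts in KO A and KO B, compared with 859 and 666 in WT 1 and WT 2. Sorted cells of both groups carried dendritic cell RNA, with Flt3 at 7651 and 7442 counts in KO A and KO B, compared with 12577 and 13167 in WT 1 and WT 2. KO A stood apart in the Y-linked gene Ddx3y, at 64.5 counts, while KO B had 3979 and WT 1 and WT 2 had 3102 and 3500. KO A and KO B were thus not repeats of the same RNA, and the labels give the sex of neither. Differences without KO A are given below for that reason. Across all genes, 822 of 11864 tested passed an adjusted p of 0.05 in limma, 557 higher and 265 lower in KO. Calls higher in KO made up 67.8% of these, and 56.5% after quantile normalization. Without KO A 0 genes passed, with 2508 at an unadjusted p under 0.05, and without KO B 3 passed, all lower, so the call of every gene named here ends when either KO library is left out.

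The start regions of the 6 genes are shown because one of the genes encodes a GATA factor. RefSeq windows of GRCm38.p6, an older build than the GRCm39 of the authors, run from 250 bases before to 50 bases after each annotated start. All 6 genes had a window, and Gata2 had 2. The search, on both strands, was for 4 words of the GATA type: AGATAA, which is in 11.2% of all windows, TGATAA, in 9.05%, AGATAG, in 8.95%, and TGATAG, in 7.29%. A match was found in the windows of 4 genes and in neither Gata2 window nor that of Mcpt8. Among all 32851 RefSeq windows, 29.8% hold at least 1 of the words. The 4 windows with a word are given from 5′ to 3′ along the gene's strand, with the words in capitals, where TTATCT is AGATAA read on the other strand. All 4 lie on the minus strand of GRCm38.p6. The Hdc window is chr2:126618629-126618928, that of Cpa3 chr3:20242132-20242431, that of Ms4a2 chr19:11623670-11623969 and that of Fcer1a chr1:173227180-173227479.
Hdc: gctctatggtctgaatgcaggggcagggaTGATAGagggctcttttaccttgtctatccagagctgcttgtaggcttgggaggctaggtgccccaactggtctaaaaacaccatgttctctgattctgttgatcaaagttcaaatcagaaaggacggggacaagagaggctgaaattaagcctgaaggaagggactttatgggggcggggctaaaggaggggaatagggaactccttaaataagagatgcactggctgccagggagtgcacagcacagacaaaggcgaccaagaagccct
Cpa3: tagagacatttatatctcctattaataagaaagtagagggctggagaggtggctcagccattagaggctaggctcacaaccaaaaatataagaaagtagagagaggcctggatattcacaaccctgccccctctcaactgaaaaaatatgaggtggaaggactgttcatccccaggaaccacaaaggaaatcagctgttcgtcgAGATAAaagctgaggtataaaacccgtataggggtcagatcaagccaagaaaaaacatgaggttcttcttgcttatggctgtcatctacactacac
Ms4a2: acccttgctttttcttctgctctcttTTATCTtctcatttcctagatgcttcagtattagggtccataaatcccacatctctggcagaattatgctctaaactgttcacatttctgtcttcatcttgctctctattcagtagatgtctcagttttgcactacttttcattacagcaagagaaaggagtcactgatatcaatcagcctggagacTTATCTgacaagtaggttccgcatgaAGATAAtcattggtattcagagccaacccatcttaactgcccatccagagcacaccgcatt
Fcer1a: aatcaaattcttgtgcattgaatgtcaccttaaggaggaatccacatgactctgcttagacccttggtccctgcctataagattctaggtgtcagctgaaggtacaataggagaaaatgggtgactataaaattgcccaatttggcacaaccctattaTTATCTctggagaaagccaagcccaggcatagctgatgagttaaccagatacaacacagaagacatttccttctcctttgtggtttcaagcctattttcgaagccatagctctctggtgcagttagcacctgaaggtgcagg
The Cpa3 window holds AGATAA 46 bases before the annotated start, on the strand of the gene. Ms4a2 has the word AGATAA 3 times, at 224, 37 and 11 bases before the start, of which the last lies on the strand of the gene. In Fcer1a it lies 92 bases before the start on the other strand. Hdc holds TGATAG at 221 bases before the start. The E-box word CANNTG was in 5 of the 7 windows, against 72.3% of all windows, and the C/EBP word TTGCGCAA was in 0 of 7, against 0.183% of all. These matches describe letters in the windows and not binding.

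Hdc encodes histidine decarboxylase, the enzyme that makes histamine. It had 3368 and 4437 normalized counts in KO A and KO B, compared with 1315 and 901 in WT 1 and WT 2. The KO libraries were both above the WT libraries, and the gap between the groups was larger than the spread within either. On the log2 scale Hdc averaged 12.10 ± 0.25 in the KO libraries and 10.62 ± 0.27 in the WT libraries (SD, n = 2 each). It rose by 1.48 (SE 0.166, limma with Benjamini-Hochberg adjustment over all genes, adjusted p = 0.0147). The difference was 1.65 with KO A left out (limma, adjusted p = 0.0545) and 1.30 with KO B left out (adjusted p = 0.0851).

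In a list of 12 genes of histamine synthesis, storage, breakdown and reception, 7 were analysed and 5 tested. Of these 1 rose, which was Hdc itself, 1 fell and 3 did not pass, beside 4.69% of all genes called higher. The median difference was 0.12 against -0.0017 over all genes tested. Hrh1, the H1 histamine receptor, had 306 and 294 counts in KO A and KO B, compared with 713 and 673 in WT 1 and WT 2. Its groups did not overlap, and it fell by 0.66 (limma, adjusted p = 0.0191), while 2.23% of all genes tested were called lower in KO. Without KO A it was at -0.68 (limma, adjusted p = 0.0665). The H2 receptor gene Hrh2 differed by 0.04 (limma, adjusted p = 0.849). Slc18a2, the vesicular monoamine transporter that loads histamine into granules, had 289 and 391 counts in KO A and KO B, compared with 324 and 248 in WT 1 and WT 2. The groups overlapped there, with a difference of 0.12 (limma, adjusted p = 0.575). Hnmt, which methylates and so inactivates histamine, lay under the limit for the test with 121 and 158 counts in KO A and KO B, compared with 66.6 and 50.6 in WT 1 and WT 2. Slc22a3, an organic cation transporter that takes up histamine, also lay under that limit, with 87.1 and 85.7 counts in KO A and KO B, compared with 26.1 and 39.9 in WT 1 and WT 2. Both were higher in both KO libraries, and with the limit of 0.5 log2 units Hnmt differed by 0.35 and Slc22a3 by 0.31 (limma, adjusted p = 0.0612 and 0.0625). Aldh1a1, an aldehyde dehydrogenase, had 433 and 506 counts in KO A and KO B, compared with 26.1 and 192 in WT 1 and WT 2, and missed the threshold with a difference of 0.98 (limma, adjusted p = 0.0531).

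Gata2 encodes a zinc-finger transcription factor of blood progenitors, basophils and mast cells. It stood at 499 and 812 counts in KO A and KO B, compared with 201 and 158 in WT 1 and WT 2. KO B was 1.63-fold above KO A, and both were above WT. Gata2 rose by 0.91 (SE 0.151, limma, adjusted p = 0.0263), and leaving out KO A gave 1.13 (adjusted p = 0.0545), leaving out KO B 0.70 (adjusted p = 0.0937). The WT mean alone was 1.16 log2 units above the lowest value, so the gene did not enter the test through KO only.

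Other GATA factors and their partners were read from a list of 18 genes that includes Gata2. Tested were 17, of which 4 passed as higher, 1 as lower and 12 missed the threshold, with a median difference of 0.15, beside 4.69% of all genes called higher and 2.23% lower. After quantile normalization 2 of the 4 passed. Zfpm1, the GATA cofactor FOG1, had 2194 and 2820 counts in KO A and KO B, compared with 447 and 710 in WT 1 and WT 2, and rose by 1.54 (limma, adjusted p = 0.0147). Gata1, the factor of red cells, platelets, eosinophils, basophils and mast cells, had 367 and 410 counts in KO A and KO B, compared with 22.5 and 153 in WT 1 and WT 2. Its WT mean was 0.75 log2 units above the lowest value, so Gata1 was tested only because of its level in KO, here and in the basophil, mast cell and red cell lists. The fit gave a difference of 0.91 (limma, adjusted p = 0.0486), and 0.58 without WT 1. Tal1, a helix-loop-helix partner of GATA factors, had 716 and 932 counts in KO A and KO B, compared with 80.5 and 341 in WT 1 and WT 2, and rose by 1.12 (limma, adjusted p = 0.0470), or by 0.73 without WT 1. WT 1 was far below WT 2 in Gata1 and Tal1, which was not so in Gata2. After quantile normalization the differences of Gata1 and Tal1 were 0.90 and 1.10 and missed the threshold (limma, adjusted p = 0.0639 and 0.0633). That of Gata2 passed it (adjusted p = 0.0367), in a fit where 3.08% of genes were called higher. Markers of red cells and platelets moved with Gata1 and Tal1: 5 of 8 tested rose (1 after quantile normalization) and 0 fell, with summed counts of 20107 and 28258 in KO A and KO B, compared with 1792 and 7976 in WT 1 and WT 2. Their part in the values of the GATA genes was not tested. Without KO A the differences were 1.70 for Zfpm1, 0.95 for Gata1 and 1.25 for Tal1, with adjusted p of 0.0545, 0.154 and 0.131 in limma.

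Kit, the stem cell factor receptor on which mast cells and progenitors depend, went the other way. It had 3858 and 4837 counts in KO A and KO B, compared with 7328 and 7217 in WT 1 and WT 2. It fell by 0.69 (SE 0.111, limma, adjusted p = 0.0253), and by 0.54 without KO A (adjusted p = 0.0712). Cd34, a surface marker of progenitors, differed by -0.07 (limma, adjusted p = 0.757).

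Mcpt8 encodes a granule serine protease of mouse basophils. Its counts were 309 and 465 in KO A and KO B, compared with 134 and 107 in WT 1 and WT 2. The groups were apart by more than the spread within each, and the gene rose by 0.69 (SE 0.120, limma, adjusted p = 0.0295). Leaving out KO A gave 0.84 (limma, adjusted p = 0.0582), and leaving out KO B gave 0.54 (adjusted p = 0.112). The WT mean was 0.96 log2 units above the lowest value, so Mcpt8 was tested only because of its level in KO. Reads that it may share with related proteases cannot be assigned here, since the counting is not described in the sources used.

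Cpa3 encodes carboxypeptidase A3, a granule exopeptidase of mast cells and basophils. It was near the lowest value of the table, at a mean of 0.96 log2 units above it. It had 161 and 200 counts in KO A and KO B, compared with 79.3 and 68.7 in WT 1 and WT 2. The groups did not overlap. With a limit of 0.5 log2 units, which leaves 15302 genes, Cpa3 differed by 0.41 (SE 0.0847, limma, adjusted p = 0.0424), in a fit where 4% of genes were called higher in KO. In that fit the adjusted p lay above 0.05 whichever of the 4 libraries was left out, between 0.0894 and 0.161.

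**Figure D1:**
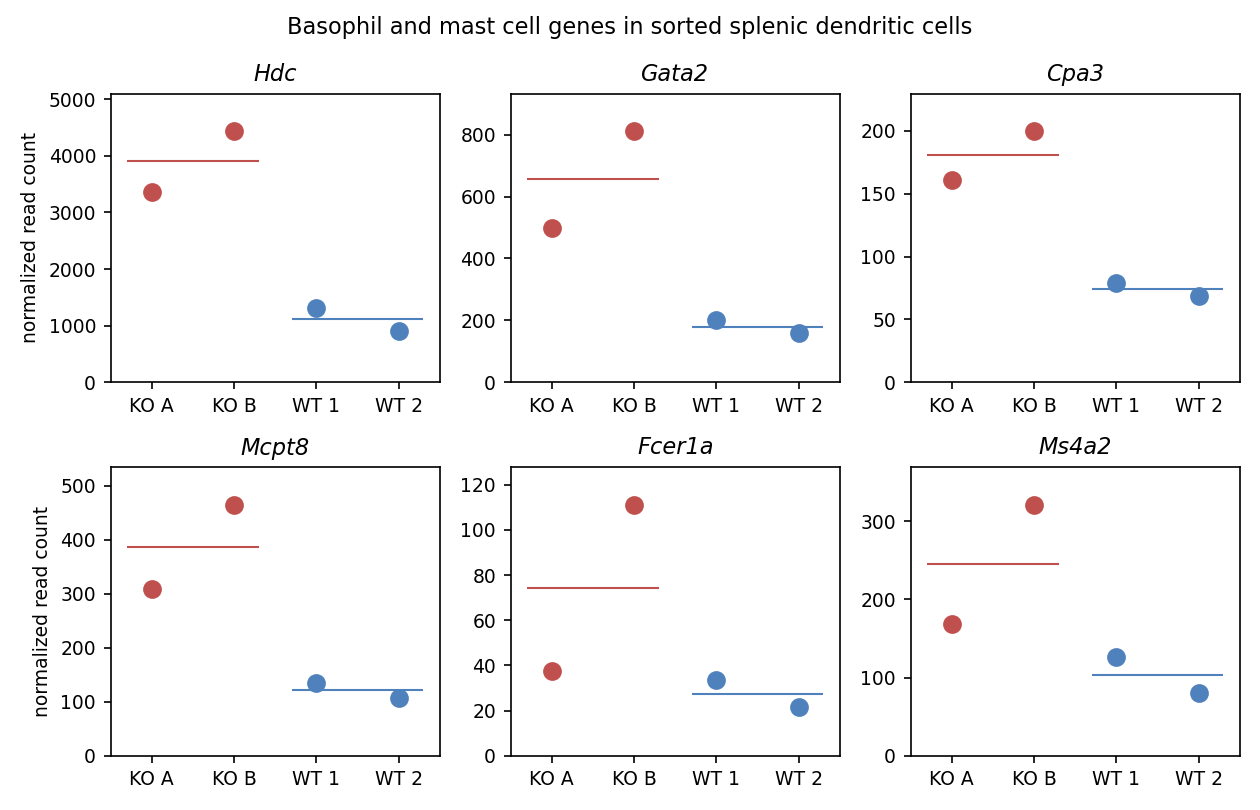
Normalized read counts (y axis, from 0) of the 6 genes in each library (x axis), with 1 point per library and a line at the mean of each group, KO in red and WT in blue. In every panel both KO points lie above both WT points, and Fcer1a in KO A, at 37.4 counts, comes closest to WT 1, at 33.4 counts.

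The granule protease list, which holds Cpa3 and Mcpt8, had 10 tested genes, of which 5 rose, 0 fell and 5 missed the threshold, at a median difference of 0.48, beside 4.69% of all genes called higher. Mcpt8 is among the 5 that rose and was tested only because of its level in KO. Prss34, the basophil tryptase-like protease mMCP-11, had 703 and 878 counts in KO A and KO B, compared with 366 and 213 in WT 1 and WT 2. It rose by 0.82 (SE 0.143, limma, adjusted p = 0.0296), and the difference without KO A was 0.93 (adjusted p = 0.0824). Cma1, a chymase of connective tissue mast cells, had 181 and 281 counts in KO A and KO B, compared with 112 and 73.3 in WT 1 and WT 2, and missed the threshold with a difference of 0.46 (limma, adjusted p = 0.0696). The WT mean of Cma1 was 0.84 log2 units above the lowest value. Like Mcpt8, it was tested only because of its level in KO, here and in the mast cell list. Srgn, the proteoglycan core on which granule proteases are stored, rose by 0.51 (limma, adjusted p = 0.0253), a call that ends without WT 1. Gzma and Gzmb, granzymes of cytotoxic lymphocytes, rose by 1.16 and 0.87 (limma, adjusted p = 0.0147 each). Without KO A the differences of Srgn, Gzma and Gzmb were 0.54, 1.28 and 0.86 (limma, adjusted p = 0.0778, 0.0545 and 0.0582). The symbols of the mast cell proteases Tpsb2, Tpsab1, Mcpt1, Mcpt2, Mcpt4 and Mcpt9 matched no row of the table, so these genes were not analysed.

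Fcer1a encodes the chain of the high-affinity receptor that binds IgE, and of the 6 it lay nearest to the lowest value, at a mean of 0.60 log2 units above it. It had 37.4 and 111 counts in KO A and KO B, compared with 33.4 and 21.6 in WT 1 and WT 2. KO B alone was high, at 2.97 times KO A, and KO A was close to WT 1. With the limit of 0.5 log2 units the difference was 0.27 (95% confidence interval from -0.03 to 0.57, limma, adjusted p = 0.261). It came to 0.46 when KO A was left out (limma, adjusted p = 0.0880) and to 0.08 when KO B was (adjusted p = 0.683).

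Ms4a2 encodes the beta chain of the receptor, which amplifies its signal. It had 169 and 321 counts in KO A and KO B, compared with 126 and 80.5 in WT 1 and WT 2. KO B was again the high library, at 1.91 times KO A. The difference was 0.44 (95% confidence interval without adjustment from 0.09 to 0.79) and missed the threshold (limma, adjusted p = 0.126). As with Mcpt8, the WT mean lay under the limit, at 0.88 log2 units above the lowest value.

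The signalling chain of the receptor, Fcer1g, is shared with other Fc receptors and with myeloid cells in general. It had 7105 and 6218 counts in KO A and KO B, compared with 5196 and 4886 in WT 1 and WT 2, a difference of 0.37 that missed the threshold (limma, adjusted p = 0.0665). In the list of 30 receptor and signalling genes, 28 were tested, of which 1 rose, 0 fell and 27 did not pass, with a median difference of 0.07. That share, against 6.93% of all genes called in either direction, was near the background. The gene that rose was Pilra, an inhibitory receptor of myeloid cells, by 0.61 (limma, adjusted p = 0.0234), and the difference without KO A was 0.62 (adjusted p = 0.0852). The kinase genes Lyn and Syk differed by -0.0014 and 0.19 (limma, adjusted p = 0.995 and 0.239).

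Across the 6 genes, the KO libraries differed more for the receptor chains than for the enzymes. KO B stood above KO A by 1.24-fold in Cpa3, 1.32-fold in Hdc, 1.50-fold in Mcpt8, 1.63-fold in Gata2, 1.91-fold in Ms4a2 and 2.97-fold in Fcer1a. Between the WT libraries the ratio of WT 1 to WT 2 ran from 1.15 in Cpa3 to 1.56 in Ms4a2. The summed counts of the 6 were 4543 and 6346 in KO A and KO B, compared with 1889 and 1337 in WT 1 and WT 2, of which most was Hdc. Without Hdc they were 1176 and 1909 in KO A and KO B, compared with 574 and 436 in WT 1 and WT 2. The 6 genes are not independent of each other where they come from the same cells.

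**Figure D2:**
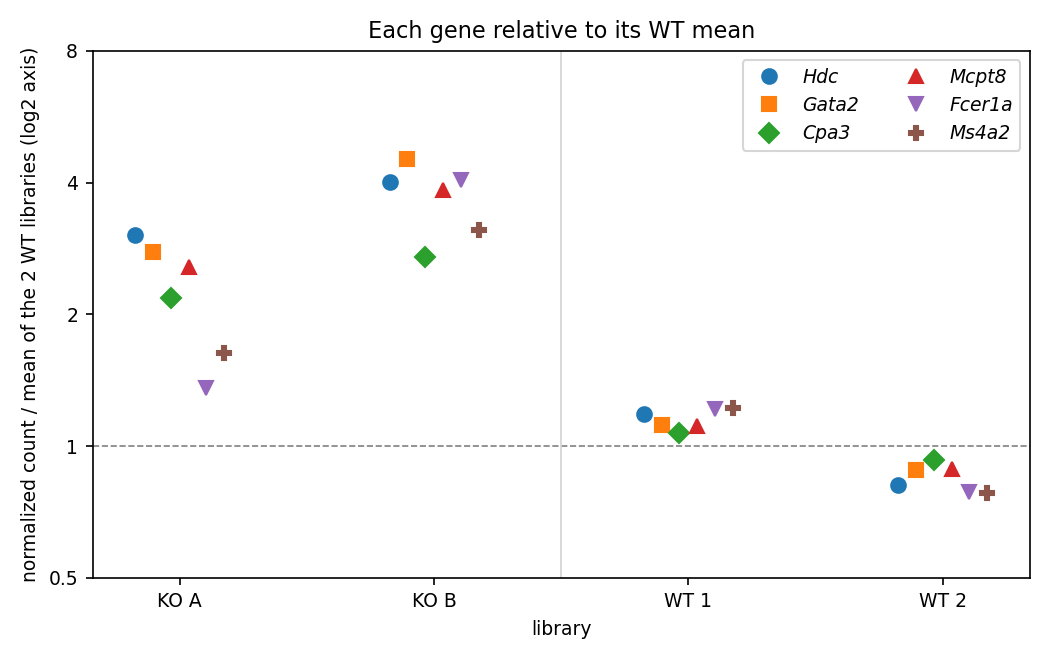
Normalized count of each gene divided by its mean over the 2 WT libraries (y axis, log2 scale) in each library (x axis), with 1 symbol per gene and the dashed line at the WT mean. KO B holds values from 2.70 to 4.52 and KO A from 1.36 to 3.04, while WT 1 lies between 1.07 and 1.22 and WT 2 between 0.78 and 0.93.

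Some of the genes kept nearly the same proportions to each other in all 4 libraries. The Hdc count was 10.9 and 9.55 times that of Mcpt8 in KO A and KO B, compared with 9.80 and 8.41 times in WT 1 and WT 2. For Gata2 the ratio to Mcpt8 was 1.61 and 1.75 in KO A and KO B, compared with 1.50 and 1.47 in WT 1 and WT 2. The highest ratio was thus 1.29 times the lowest for Hdc and 1.19 times for Gata2, while Mcpt8 itself spanned 4.33-fold. The span was 1.49 for Cpa3, 1.72 for Ms4a2 and 2.06 for Fcer1a. Among other basophil and mast cell genes it was 1.42 for Cma1, 1.44 for Prss34, 1.79 for Cyp11a1 and 2.84 for Cd200r3. The median span over the 11860 other tested genes was 4.44. A gene with equal counts in all 4 libraries has the span of Mcpt8 itself, so this median is no measure of shared proportions. Any gene with a similar rise in KO can have a small span, and the genes called higher in KO were not compared separately. Genes of other cells could lie as close, with a span of 1.36 for Gzma. It was 8.74 for Slc4a1, a red cell gene, 3.50 for S100a8, a neutrophil gene, and 7.67 for Flt3. These ratios are not per length and compare libraries, not the levels of the genes.

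The wider list of basophil genes held 28 analysed genes beyond the 6, of which 25 were tested. Of these 6 rose, 0 fell and 19 did not pass, beside 4.69% of all genes called higher. Their median difference was 0.33, against -0.0017 over all genes tested. The genes that passed were Prss34, Gata1, Cd69, Cebpb, Fcgr3 and Ikzf1. Apart from Prss34, other blood cells express them too: Cd69, an early activation antigen of lymphocytes, rose by 1.41 (limma, adjusted p = 0.0199), Cebpb, a myeloid transcription factor, by 1.21 and Fcgr3, a low-affinity IgG receptor, by 0.69 (adjusted p = 0.0147 each). Ikzf1, a lymphoid regulator, rose by 0.36 (limma, adjusted p = 0.0482), and missed the threshold after quantile normalization (adjusted p = 0.0579) and without either WT library. Without KO A the differences were 1.22 for Cd69, 1.19 for Cebpb and 0.67 for Fcgr3 (limma, adjusted p = 0.0778, 0.0582 and 0.0619).

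Genes more restricted to basophils did not all pass. Cyp11a1, a steroid-synthesis enzyme also found in mouse basophils, had 152 and 410 counts in KO A and KO B, compared with 66.5 and 74.6 in WT 1 and WT 2, with a difference of 0.65 (limma, adjusted p = 0.0996). Its WT mean was 0.74 log2 units above the lowest value, so Cyp11a1 was tested only because of its level in KO. Cd200r3, an activating receptor of basophils and mast cells, had 194 and 476 counts in KO A and KO B, compared with 133 and 191 in WT 1 and WT 2, with a difference of 0.41 (limma, adjusted p = 0.258). In both, KO B was the high library. Il3ra, the receptor chain for the basophil growth factor interleukin 3, differed by 0.04 (limma, adjusted p = 0.841), and Il4, a basophil cytokine, lay near the lowest value with at most 16.2 counts in any library.

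**Figure D3:**
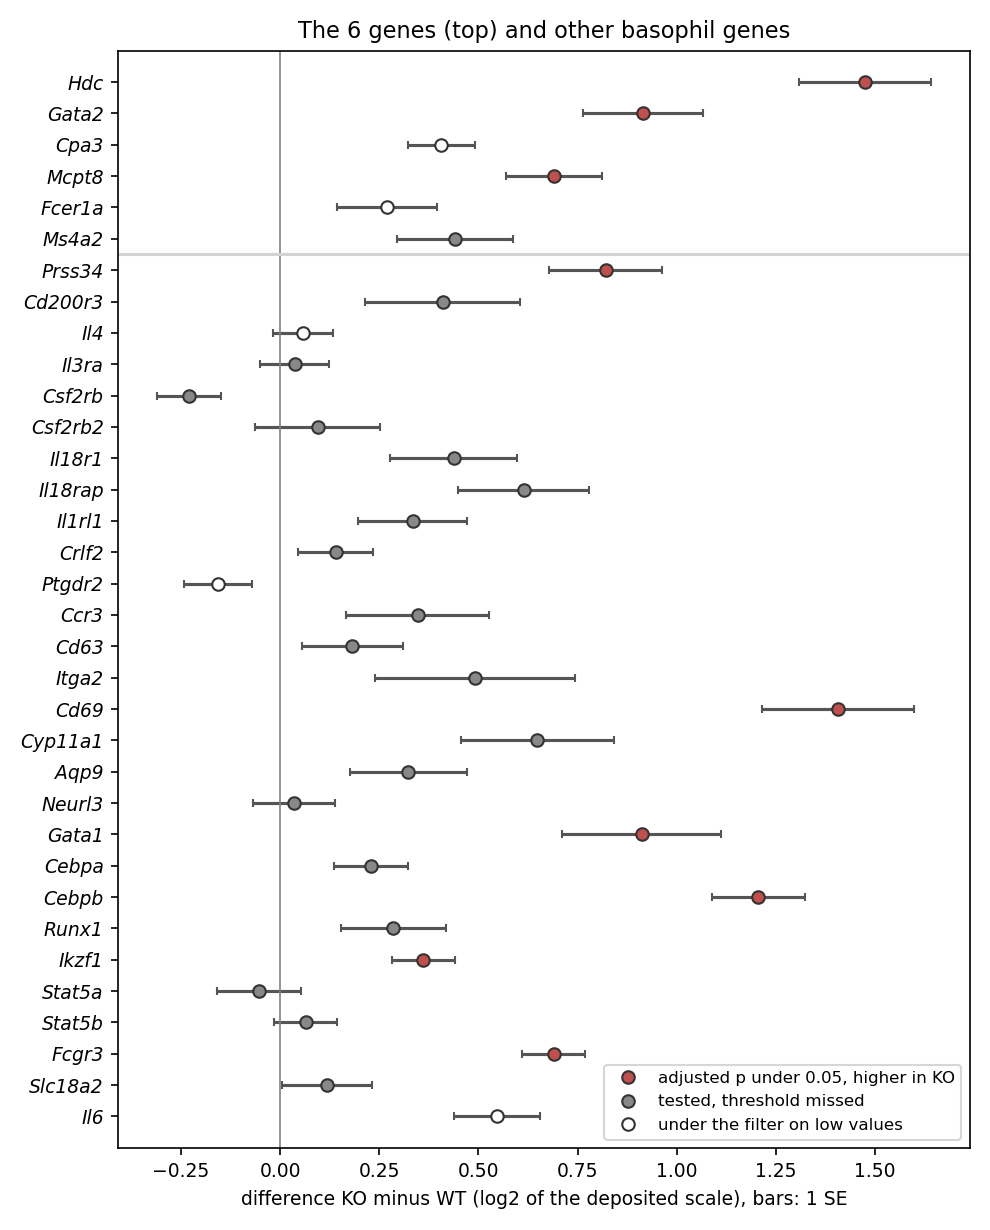
Difference KO minus WT on the deposited log2 scale (x axis) for the 6 genes at the top and 28 other basophil genes, with bars of 1 SE. Filled red points passed an adjusted p of 0.05, grey points were tested and missed it, and open points lay under the limit of 1 log2 unit. Hdc, at 1.48, and Cd69, at 1.41, lie farthest to the right.

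Among 17 analysed mast cell genes beyond the 6, 13 were tested, of which Srgn and Gata1 passed as higher, Kit fell and 10 did not pass. The median difference was 0.12, and of all genes tested 4.69% were called higher and 2.23% lower. Mitf, the transcription factor of mast cells and melanocytes, differed by 0.12 (limma, adjusted p = 0.468). Hpgds, the prostaglandin D synthase of mast cells, differed by 0.14 (limma, adjusted p = 0.676). Mrgprb1, a receptor gene of mast cells, lay near the lowest value with between 12.3 and 26.1 counts.

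Markers of other cell types moved in the same libraries, where 4.69% of all genes tested were called higher in KO and 2.23% lower. NK cell markers rose in 10 of 13 cases and fell in 0, with a median difference of 0.85. The summed NK counts were 21555 and 26758 in KO A and KO B, compared with 11290 and 11893 in WT 1 and WT 2, and Itga2, which basophils and NK cells share, was in that list. Of 10 monocyte and inflammatory dendritic cell markers 4 rose and 6 did not pass, with summed counts of 51871 and 48885 in KO A and KO B, compared with 33318 and 36233 in WT 1 and WT 2. None of the 2 tested eosinophil markers passed, and none of the 10 plasmacytoid dendritic cell or 7 B and T cell markers did. Pan dendritic cell markers fell in 8 of 12, with 4 not past the threshold. The part of these cells in the values of the 6 genes was not tested.

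Hdc is also in the list of neutrophil markers, of which 4 of 18 rose, 0 fell and 14 did not pass. Their median difference was 0.82, and 4.69% of all genes tested were called higher in KO. The others that rose were the receptor genes Trem1, Cxcr2 and Csf3r, the last not after quantile normalization. In 13 of the 18 both KO libraries lay above both WT libraries, which held for 26.5% of all genes of the table, and in 0 below. WT 1 held much more neutrophil RNA than WT 2. Summed neutrophil counts were 292662 and 275506 in KO A and KO B, compared with 247772 and 97292 in WT 1 and WT 2. S100a8, a calprotectin subunit named here after its values were seen, was not among the 13, so it does not stand for the list. It was level in KO A, KO B and WT 1, at 23236, 22271 and 22537 counts, and lower in WT 2, at 7383. In the same order Hdc had 3368, 4437, 1315 and 901 counts. The part of neutrophils in the Hdc values was not tested.

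**Figure D4:**
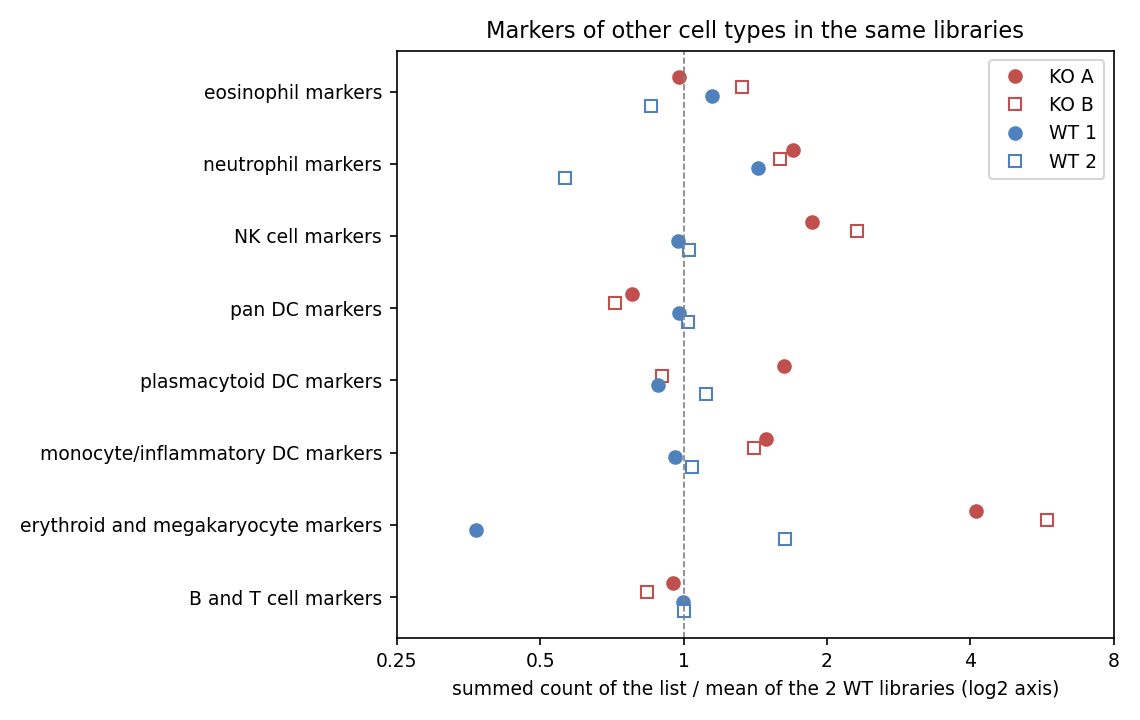
Summed normalized counts of each marker list divided by their mean over the 2 WT libraries (x axis, log2 scale), with 1 symbol per library, KO in red and WT in blue. Red cell and platelet markers range most widely, from 0.37 in WT 1 to 5.79 in KO B, neutrophil markers set WT 2 apart at 0.56, and NK markers lie at 1.86 and 2.31 in KO A and KO B.

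Genes with the pattern most like that of each tested gene were found by the distance between their 4 library values, each gene centred on its own mean. For Hdc the nearest were Gzma at a distance of 0.35 log2 units, Prf1, the pore-forming protein of cytotoxic cells, at 0.41, Tnfaip2 and Fosl2 at 0.45 and the cytokine gene Osm at 0.46. For Gata2 they were Cxcr2 at 0.12, Cpd and March8 at 0.13, and Fn1 and Ncr1 at 0.14. The nearest to Mcpt8 were Igf1r at 0.059, Cd2 at 0.076, Klrc2 at 0.079, Gda at 0.080 and Plekha6 at 0.082. Ms4a2 was closest to Cd163 at 0.052, Sidt1 at 0.073, Abhd5 at 0.076, Atp6v0a1 at 0.078 and Mpo at 0.085. Smaller distances for Mcpt8 and Ms4a2 come with their compressed values, since low genes vary less on this scale. With 4 libraries such likeness is a description only.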

How the data were processed

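Total RNA of sorted splenic dendritic cells was read from 2 KO and 2 WT libraries, whose kit keeps strand and suits low input, per the labels' protocols. The deposited table holds variance-stabilized log2 values of 17300 genes, scaled between libraries by the authors. Salmon 1.10.1, DESeq2 and the build GRCm39 are named, without their roles, per the submitters' processing notes. How genes were filtered is not given in the sources used here. Both WT columns carry the numbers of the WT titles. The KO columns carry other numbers than the KO titles, so they were taken as KO only and called A and B.

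Symbols came from GENCODE M21, used for names alone (17289 of 17300 identifiers matched, 11 did not). A count was recovered as the square of the difference between 2 to the power of the value and 2 to the power of the lowest value, 8.04, divided by 2 to the power of the value. The 11864 genes whose mean exceeded the lowest value by 1 log2 unit or more were fitted in limma 3.58.1 under R 4.3.3, with an intensity trend, two-sided, and Benjamini-Hochberg adjustment at 0.05. The fit was tested on simulated data. A permutation of 2 against 2 libraries could not reach the threshold and was not used. Alternatives were other filters, quantile normalization, log2 of the recovered count plus 1, no trend, and each library left out in turn.

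The 6 genes and all lists were chosen with earlier results of these data known. Named were the 6 genes, genes of the lists on basophils, mast cells, histamine, the IgE receptor, GATA factors and granule proteases, at most 4 called genes of each other list, the 5 nearest genes of each tested gene, and Siglece. Flt3, S100a8, Slc4a1 and Ddx3y were named in addition, after their values were seen.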

Additional observations from a re-analysis of the deposited data

How the results depend on the processing

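The 6 genes were higher in KO under every alternative that gave a value, 53 in all. Since both KO libraries lay above both WT libraries in each gene, only quantile normalization could have changed that direction. Of the 53, 43 kept their side of the threshold, which for Fcer1a and Ms4a2 meant that they stayed uncalled. The other 10, all of Hdc, Gata2, Mcpt8 and Cpa3, lost the call, each with a library left out. Leaving out each library in turn gave differences from 1.28 to 1.67 for Hdc, from 0.70 to 1.13 for Gata2, from 0.54 to 0.84 for Mcpt8 and from 0.24 to 0.64 for Ms4a2. They ran from 0.35 to 0.47 for Cpa3 and from 0.08 to 0.46 for Fcer1a, both with the limit of 0.5 log2 units. The lone library of a group is then assumed to vary like the other group. On the scale of log2 of the recovered count plus 1 the differences were larger, at 1.83 for Hdc, 1.83 for Gata2, 1.65 for Mcpt8, 1.27 for Cpa3, 1.24 for Fcer1a and 1.20 for Ms4a2. Over all genes, 366 were higher after quantile normalization in place of 557. With a library left out, between 0 and 620 were higher and between 0 and 200 lower; the 200 came without WT 2, and without WT 1 it was 167. The limit of 2 log2 units kept only Hdc of the 6. Counts of called genes in the lists that were above 0 stayed within 1.5 times in 71 of 84 cases with all libraries and in 24 of 56 with 1 left out. With the limit of 2 log2 units 2 in place of 5 granule protease genes were higher. Red cell and platelet markers called higher fell to 1 after quantile normalization and to 0 on the log2 count scale, in place of 5. No paired analysis was possible because the KO columns carry numbers that no title has. Low counts, as for Fcer1a, limit what can be seen at this depth.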

Other observations

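Other receptor and signalling genes of basophils missed the threshold. Csf2rb and Csf2rb2, which encode beta chains of the interleukin 3 receptor, differed by -0.23 and 0.09 (limma, adjusted p = 0.145 and 0.763). Stat5a and Stat5b, which act below them, differed by -0.05 and 0.06 (limma, adjusted p = 0.807 and 0.677). Il18rap, a chain of the interleukin 18 receptor on basophils and NK cells, had 3695 and 5517 counts in KO A and KO B, compared with 2857 and 2716 in WT 1 and WT 2, and missed the threshold with a difference of 0.61 (limma, adjusted p = 0.0781). Itga2, the integrin CD49b used to identify basophils and NK cells, had 503 and 1206 counts in KO A and KO B, compared with 392 and 525 in WT 1 and WT 2, so KO A lay between the WT libraries. Ccr3, the eotaxin receptor, had 234 and 459 counts in KO A and KO B, compared with 255 and 143 in WT 1 and WT 2, with KO B alone above WT.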
